A study of Drosophila melanogaster with 6 samples.

Results

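The proteasome is the cell's main machine for degrading proteins that have been tagged with chains of ubiquitin. A barrel-shaped 20S core, built of rings of alpha and beta subunits, holds the proteolytic sites inside, and a 19S regulatory particle caps it, with a base of ATPases that unfold the substrate and a lid that removes its ubiquitin. In flies, as in other animals, the genes of these subunits are largely controlled together, and oxidative stress is one of the conditions in which cells depend on the machine. Drosophila also carries duplicated subunit genes that are expressed mainly in the testis.

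Transcripts of the proteasome subunits were examined in RNAseq libraries of adult fly heads, where the comparison asks which of them differ after a short exposure to paraquat (PQ), a herbicide that generates reactive oxygen species. The PQ-fed group was kept for 12 h on a 2.5% sucrose solution to which PQ had been added at 5 mM, and the sucrose-fed group for the same 12 h on the 2.5% sucrose solution alone. Both groups were wild-type Canton S males aged 3 to 5 days, with 3 libraries per group, and RNA came from heads pooled from 30 males per group, so that differences between single flies cannot be seen. The labels call the libraries independent biological replicates.

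The subunit genes were taken by symbol, as all genes of the expression table whose name begins with Prosalpha, Prosbeta, Pros and a digit, Rpn and a digit, or Rpt and a digit. This gave 41 of the 14604 genes. Of these, 28 encode subunits of the general proteasome (canonical members) and 13 are testis-type paralogs, which are described apart. The table uses older symbols for 11 of the 41, so the current name is given in parentheses, as in Pros35 (Prosalpha6). A further 8 genes, 6 of them canonical subunits and 2 of them paralogs, have symbols that the rule does not reach and are described beside the members but not counted with them. Expression is given as RPKM, a read count scaled to the length of the transcript and to the number of mapped reads. No value is below 1 RPKM, and a gene listed at 1 RPKM is treated as being at a floor, at or below which its level is unknown. The 9853 genes that were above this floor in at least 1 library were tested with limma on log2(RPKM + 0.5), a scale on which the change of a low gene is understated.

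Of the 28 canonical members, 27 were above the floor in all 6 libraries and were tested. They comprise 6 alpha and 6 beta subunits of the core, 8 subunits of the base and 7 of the lid. The exception was Prosalpha1, an alpha subunit, which was listed at 1 RPKM in all 6 libraries. Its near-identical duplicate CG30382 (Prosalpha1R) lies beside it on chromosome 2R and was also at 1 RPKM in all 6. How reads that match both copies were counted is not stated, so the level of either gene is uncertain. Of the 13 testis-type paralogs, 3 were above the floor in at least 1 library and 10 were at the floor in all 6. The 27 tested canonical genes lie on 5 chromosome arms, with 3 on 2L, 7 on 2R, 5 on 3L, 8 on 3R and 4 on X.

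The libraries were alike in the share of genes at the floor, which was 34.8% to 35.5%. Their summed RPKM was lowest in PQ-fed library 1 (452656) and highest in sucrose-fed library 2 (494293). Of all tested genes, 42.4% were above their mean over the 6 libraries in PQ-fed library 1 and 57.2% in sucrose-fed library 2. In the other libraries this share was 44.4% to 55.9%. The part of these differences in the levels of the subunits was not tested. Marker genes matched the labelled tissue, with 5 of 5 neuron, 5 of 5 photoreceptor and 4 of 4 glia markers above the floor, and 0 of 5 testis markers. Markers of fat body (3 of 4 above the floor), muscle (4 of 5) and hemocytes (4 of 4) were also present. The summed RPKM of the neuron markers was 972 to 1111 in PQ-fed and 920 to 1099 in sucrose-fed libraries, that of the glia markers 635 to 784 and 678 to 724, that of the photoreceptor markers 16028 to 17410 and 16532 to 18238, that of the fat body markers 477 to 550 and 396 to 820, that of the muscle markers 1086 to 1623 and 1194 to 1642, and that of the hemocyte markers 9.82 to 19.1 and 5.56 to 17.7. Their part in the results for the subunits was not tested.

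The canonical subunits were expressed at similar, fairly high levels in heads. Their mean RPKM over the 6 libraries lay between 31.0 for Rpn1 and 76.7 for Pros25 (Prosalpha2), a ratio of 2.47 across all 27 genes, and the median was 50.6. Each was above 70.4% to 88.3% of the tested genes. The core subunits, with a median of 57.3 RPKM over 12 genes, were on average above the 19S subunits, with a median of 45.1 RPKM over 15 genes, and the ranges overlapped widely. Within the core, Pros25 was the highest at 74.7, 84.4 and 86.5 RPKM in PQ-fed libraries 1, 2 and 3, against 64.8, 81.8 and 68.1 RPKM in sucrose-fed libraries 1, 2 and 3 (values of single libraries are given in this order throughout). The lowest of the core was Pros35, described below with its difference between the groups.

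Among the base subunits, the ATPase Rpt1 was the highest, at 63.7, 70.1 and 70.3 RPKM in PQ-fed and 62.1, 66.7 and 60.3 RPKM in sucrose-fed libraries, and the groups overlapped. Its whole span lies inside CG17985 on the same strand, itself at 13.3 to 17.8 RPKM, and whether reads were divided between them is not stated. The scaffold subunit Rpn1 was the lowest of the base. In the lid, Rpn6 was the highest with a mean of 54.0 RPKM and Rpn11 the lowest with 36.2 RPKM. The spans of 11 of the 27 genes overlap another gene, but for only 2 does this cover more than 50% of the span. These are Rpt1 and the ATPase gene Pros45 (Rpt6), of which 91.2% overlaps CG1801 on the opposite strand, a gene listed at 1 RPKM in every library. For the other genes the overlap covers at most 14.0% of the span.

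**Figure D1:**
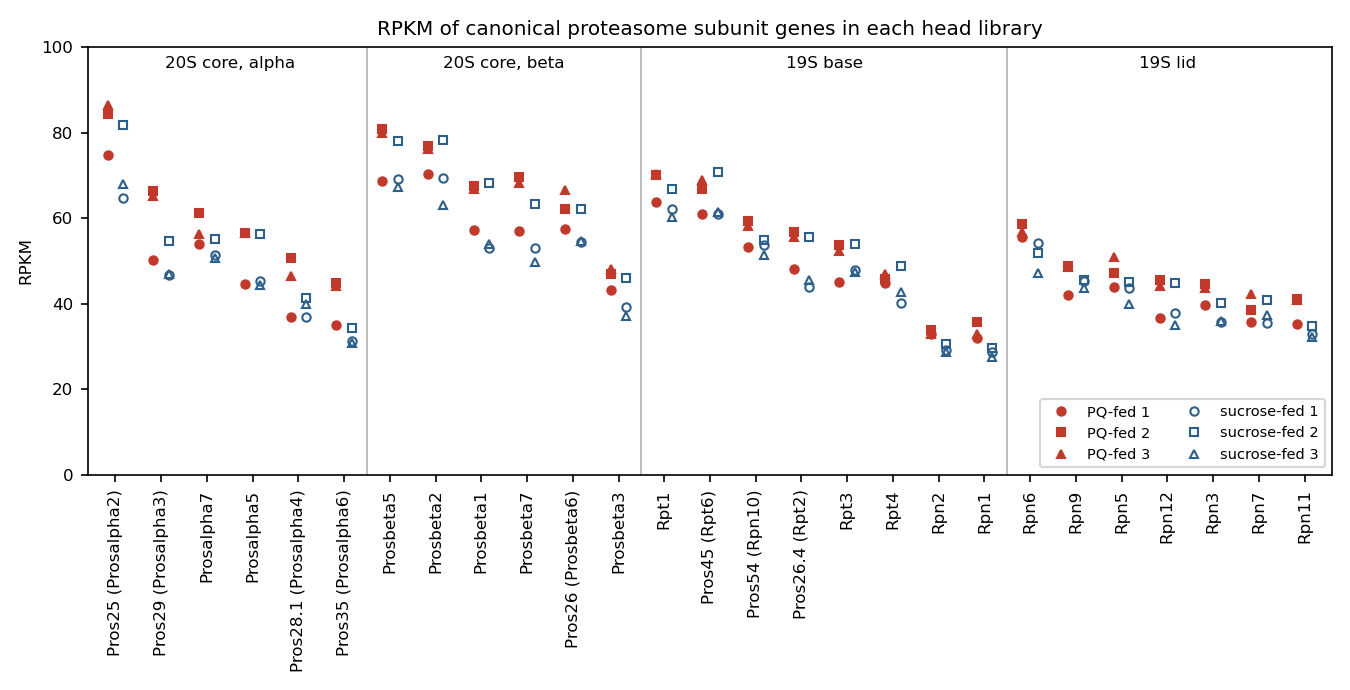
RPKM (linear axis from 0) of the 27 tested canonical subunit genes, grouped into core alpha, core beta, base and lid and ordered by their mean; filled red symbols are PQ-fed libraries and open blue symbols sucrose-fed libraries, with the symbol shape giving the replicate number. The values lie between 27.6 and 86.5 RPKM, and the open squares of sucrose-fed library 2 are the highest of the sucrose-fed libraries for 26 of the 27.

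All 27 canonical members had a positive log2 fold change of PQ-fed over sucrose-fed, with a median of 0.13 and a range of 0.02 to 0.35, and none passed the test. Over all 9853 tested genes the median was -0.02 and 42.2% were positive. With 1 library left out at a time, 24 to 27 of the 27 were positive and the median was 0.091 to 0.19. At an adjusted p under 0.05 from limma with Benjamini-Hochberg adjustment, 0 of the 27 canonical and 0 of the 3 tested testis-type members were called (smallest adjusted p = 0.951), where 0.0812% of all tested genes were called higher and 0% lower. There were 5 canonical members with an unadjusted p under 0.05, all higher in PQ-fed libraries, which is 18.5% of the 27 beside 2.21% of all tested genes, and 0 were lower, beside 1.67%. The count of 5 rested on single libraries. It was 0 without PQ-fed library 2 (1.69% of all tested genes), 1 without PQ-fed library 3 (1.53%) or without sucrose-fed library 3 (1.34%), 8 without PQ-fed library 1 (2.72%) and 11 without sucrose-fed library 2 (2.29%). Without sucrose-fed library 1 it was 4, where 4.53% of all tested genes were higher and 6.35% lower at this p. In 5 of the 27 every PQ-fed library was above every sucrose-fed library, beside 3.11% of all tested genes, and in 0 was every PQ-fed library below, beside 4.47%. For a single gene without overlap the exact permutation test gives a two-sided p of 0.1, the smallest that 3 against 3 libraries allow. In whole heads, fewer cells of a type and less RNA per cell cannot be told apart. The subunits were high or low together in single libraries, as described below, so the 27 genes do not count as 27 separate observations.

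**Figure D2:**
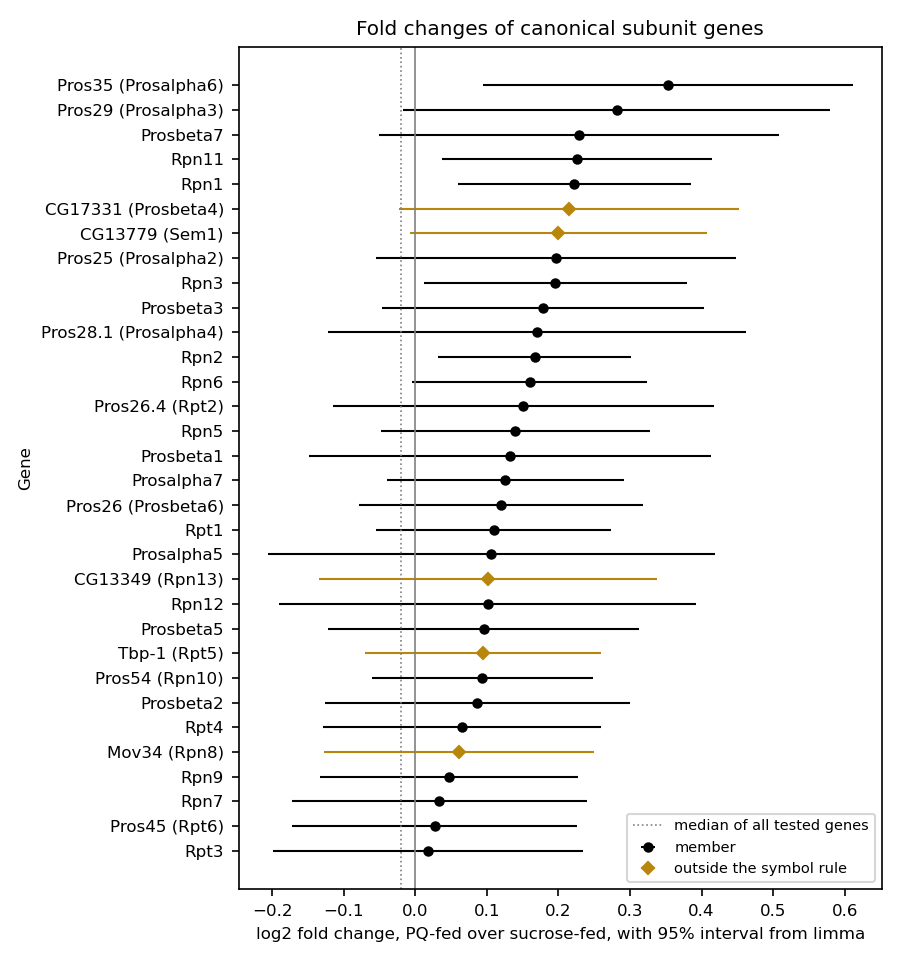
Log2 fold change of PQ-fed over sucrose-fed with its 95% interval from limma for the 27 tested canonical members (black circles) and 5 canonical subunits outside the symbol rule (ochre diamonds), with a solid line at 0 and a dotted line at the median of all tested genes (-0.02). All points lie above 0, although with 1 library left out up to 3 members fall below it, and the intervals of 5 members lie wholly above 0.

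By part of the complex, the median log2 fold change was 0.18 for the 6 alpha subunits (0.11 to 0.35), 0.13 for the 6 beta subunits (0.09 to 0.23), 0.10 for the 8 base subunits (0.02 to 0.22) and 0.14 for the 7 lid subunits (0.03 to 0.23). Summed over all 27 genes, RPKM was 1319, 1514 and 1506 in PQ-fed libraries, against 1267, 1433 and 1243 in sucrose-fed libraries, or 1446 ± 110.4 and 1314 ± 103 (SD, n = 3 each). This is 10.0% more in PQ-fed heads, about the size of the SD within either group, and the groups overlapped because sucrose-fed library 2 was above PQ-fed library 1. The sums were higher by 15.2% for the alpha, 9.70% for the beta, 6.87% for the base and 9.44% for the lid subunits, and the groups overlapped in each.

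Among the core subunits, Pros35 (Prosalpha6, an alpha ring subunit; dm3 chromosome 2L, 10221353 to 10222515) had the largest log2 fold change of the 27. It was at 35.1, 44.9 and 44.2 RPKM in PQ-fed libraries, against 31.2, 34.3 and 30.8 RPKM in sucrose-fed libraries. All PQ-fed libraries were above all sucrose-fed ones, but PQ-fed library 1 exceeded sucrose-fed library 2 by little. Its log2 fold change was 0.35 (standard error 0.11, 95% interval 0.09 to 0.61, limma adjusted p = 0.951). Pros29 (Prosalpha3), which belongs to the same ring, had the next largest difference, with 50.1, 66.5 and 65.1 RPKM in PQ-fed and 46.8, 54.6 and 47.03 RPKM in sucrose-fed libraries. Its groups overlapped, since PQ-fed library 1 was below sucrose-fed library 2, and its log2 fold change was 0.28 (standard error 0.13). The other 4 tested alpha subunits, Pros25 (Prosalpha2), Pros28.1 (Prosalpha4), Prosalpha7 and Prosalpha5, had log2 fold changes of 0.20, 0.17, 0.13 and 0.11, and their groups overlapped.

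The beta subunits that carry the proteolytic sites were close to each other in level and in difference. Prosbeta1, the caspase-like subunit, was at 57.2, 67.4 and 66.9 RPKM in PQ-fed and 53.1, 68.1 and 54.0 RPKM in sucrose-fed libraries. Prosbeta2, the trypsin-like subunit, was at 70.4, 76.8 and 76.1 RPKM in PQ-fed and 69.4, 78.1 and 63.2 RPKM in sucrose-fed libraries. Prosbeta5, the chymotrypsin-like subunit, was at 68.6, 80.8 and 79.8 RPKM in PQ-fed and 69.3, 78.0 and 67.2 RPKM in sucrose-fed libraries. In all 3 genes the groups overlapped, with sucrose-fed library 2 among the PQ-fed values or above them. Their log2 fold changes were 0.13, 0.09 and 0.10, each about the size of its standard error (0.12, 0.09 and 0.09). The structural beta subunits Prosbeta7, Prosbeta3 and Pros26 (Prosbeta6) had log2 fold changes of 0.23, 0.18 and 0.12, also with overlapping groups.

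In the base, the scaffold subunits Rpn1 and Rpn2, which bind ubiquitin receptors and hold the ATPase ring, had groups that did not overlap. Rpn1 (dm3 chromosome 3L, 19908156 to 19911265) was at 31.9, 35.7 and 32.8 RPKM in PQ-fed libraries, against 28.7, 29.6 and 27.6 RPKM in sucrose-fed libraries, a log2 fold change of 0.22 (standard error 0.07). Rpn2 (dm3 chromosome 3R, 24979185 to 24982981) was at 32.8, 33.8 and 32.9 RPKM in PQ-fed libraries, against 29.2, 30.5 and 28.8 RPKM in sucrose-fed libraries, a log2 fold change of 0.17 (standard error 0.06). These had the lowest levels of the 27 members and a narrow spread, with an SD of 0.545 RPKM in PQ-fed and 0.901 RPKM in sucrose-fed libraries for Rpn2. Both had an adjusted p of 0.951 from limma. The log2 fold changes of the ATPases were 0.15 for Pros26.4 (Rpt2), 0.11 for Rpt1, 0.07 for Rpt4, 0.03 for Pros45 (Rpt6) and 0.02 for Rpt3, and Pros54 (Rpn10), a ubiquitin receptor, had 0.09, all with overlapping groups. The values of Rpt3 and Pros45 were negative in some of the comparisons that left out 1 library.

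In the lid, Rpn11, the deubiquitinase that removes ubiquitin chains from the substrate (dm3 chromosome 2L, 5058396 to 5059816), was at 35.3, 41.1 and 40.8 RPKM in PQ-fed libraries, against 32.9, 34.7 and 32.2 RPKM in sucrose-fed libraries. All PQ-fed libraries were above all sucrose-fed ones, and the log2 fold change was 0.23 (standard error 0.08). The scaffold subunit Rpn6 (dm3 chromosome 2R, 10637658 to 10640415) was at 55.6, 58.6 and 56.7 RPKM in PQ-fed libraries, against 54.1, 51.8 and 47.1 RPKM in sucrose-fed libraries. It was the only member of which sucrose-fed library 1, not library 2, was the highest of its group, and its groups did not overlap (log2 fold change 0.16, standard error 0.07). Its span overlaps the opposite-strand genes ave by 385 bases and AttB by 13 bases, and AttB, an antimicrobial peptide gene, was at 43.9 RPKM in sucrose-fed library 2 and at 8.19 to 14.2 RPKM in the other 5 libraries. Rpn3 was at 39.7, 44.6 and 43.7 RPKM in PQ-fed libraries, against 35.7, 40.1 and 35.8 RPKM in sucrose-fed libraries. Here PQ-fed library 1 was just below sucrose-fed library 2, and the log2 fold change was 0.20 (standard error 0.08). The remaining lid subunits Rpn5, Rpn12, Rpn9 and Rpn7 had log2 fold changes of 0.14, 0.10, 0.05 and 0.03, and Rpn7 was negative in 2 of the comparisons that left out 1 library. By limma the adjusted p of Rpn11, Rpn6 and Rpn3 was 0.951.

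As a share of the summed RPKM of the 27 genes, 3 members were higher in every PQ-fed library than in every sucrose-fed library, namely Pros35 (mean 2.85% in PQ-fed and 2.45% in sucrose-fed libraries), Rpn11 (2.70% and 2.54%) and Rpn3 (2.96% and 2.83%). The shares of 4 members were lower in every PQ-fed library, namely Prosbeta5 (5.28% and 5.44%), Pros45 (4.54% and 4.90%), Rpt3 (3.48% and 3.78%) and Rpn7 (2.69% and 2.89%). The other 20 overlapped. No test was run on these shares, which sum to a constant. They are defined only within the 27 genes, so the counts of 3 and 4 have no share over all tested genes beside them. Whether the composition differed between the groups was not tested.

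Canonical subunits whose symbols lie outside the rule had values in the same range. CG17331 (Prosbeta4, a beta subunit) was at 53.2, 66.7 and 64.0 RPKM in PQ-fed libraries, against 52.3, 56.0 and 49.5 RPKM in sucrose-fed libraries (log2 fold change 0.21). CG13779 (Sem1, the small acidic lid subunit) was at 53.2, 64.2 and 60.5 RPKM in PQ-fed libraries, against 48.3, 51.8 and 54.3 RPKM in sucrose-fed libraries (log2 fold change 0.20). Both overlapped between the groups through PQ-fed library 1. CG13349 (Rpn13, a ubiquitin receptor), Tbp-1 (Rpt5, an ATPase) and Mov34 (Rpn8, the partner of Rpn11) had log2 fold changes of 0.10, 0.09 and 0.06. All 5 were positive, with a median of 0.10, and 0 were called by limma.

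The subunits moved together between libraries of the same group. PQ-fed library 1 was the lowest of the PQ-fed libraries for 27 of 27 members, and sucrose-fed library 2 was the highest of the sucrose-fed libraries for 26 of 27. PQ-fed libraries 2 and 3 were both above sucrose-fed libraries 1 and 3 for all 27, and above every sucrose-fed library for 19. These counts set libraries aside after the values were seen, and their shares over all tested genes were not computed. With all 6 libraries, the groups did not overlap for 5 of the 27. PQ-fed library 1 was above sucrose-fed libraries 1 and 3 for 18, and sucrose-fed library 2 was above PQ-fed library 1 for 22 and above every PQ-fed library for 5. The median within-group SD of the 27 members was 0.11 on the log2 scale, against 0.12 for all tested genes and 0.11 for the 3576 tested genes with a mean of at least 25 RPKM. After the mean of the canonical members was subtracted in each library, 0.06 was left. Some neuron markers stood apart in the same libraries, in the opposite direction. Of the 5 markers, 4 were highest of the PQ-fed libraries in library 1 and 4 were lowest of the sucrose-fed libraries in library 2, with 3 doing both. The summed RPKM of the 5 was 1111, 1079 and 972 in PQ-fed and 1070, 920 and 1099 in sucrose-fed libraries. The pan-neuronal RNA-binding protein gene elav was at 35.2, 32.8 and 23.9 RPKM in PQ-fed and 34.4, 16.0 and 28.9 RPKM in sucrose-fed libraries, and the synaptic active zone gene brp at 60.4, 52.1 and 41.6 RPKM in PQ-fed and 56.3, 29.3 and 46.4 RPKM in sucrose-fed libraries. Syx1A, another of the 5, was at 179.2, 176.1 and 171.5 RPKM in PQ-fed and 174.0, 182.8 and 184.7 RPKM in sucrose-fed libraries. The sums of the muscle and of the glia markers had the same extremes as the subunits, but not every single marker did. The muscle sum was 1086, 1502 and 1623 in PQ-fed and 1194, 1642 and 1606 in sucrose-fed libraries. The glia sum was 635, 739 and 784 in PQ-fed and 718, 724 and 678 in sucrose-fed libraries. Of the glia markers, repo, moody and Eaat1 were lowest of the sucrose-fed libraries in library 2, and only Gs2 was highest there. Among PQ-fed libraries, moody was lowest in library 2 and the other glia markers in library 1. The muscle markers Mhc and up were highest of the sucrose-fed libraries in library 3, and Act57B and Act88F in library 2. Photoreceptor, fat body and hemocyte sums had neither order in both groups. The part of any of these markers in the order of the libraries was not tested.

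**Figure D3:**
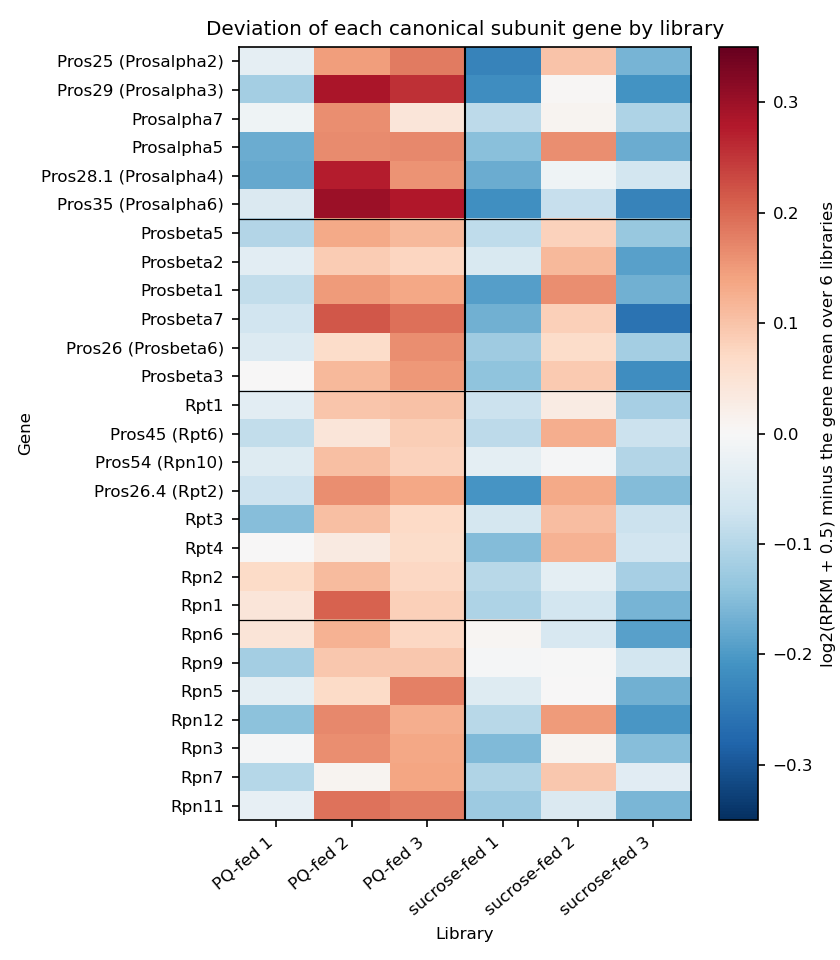
Deviation of log2(RPKM + 0.5) from the gene's mean over the 6 libraries (red above, blue below) for the 27 tested canonical members (rows, in groups of core alpha, core beta, base and lid) in each library (columns, PQ-fed libraries left of the line and sucrose-fed libraries right of it). PQ-fed libraries 2 and 3 are above the gene mean for 27 of 27 members, sucrose-fed library 2 for 19, PQ-fed library 1 for 5, sucrose-fed library 1 for 1 and sucrose-fed library 3 for 0.

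The order of the libraries was shared in part by other genes of short span. Of the 27 members, 23 span less than 2 kb of the genome (0.914 to 3.797 kb in all). Among the 533 tested genes with a span of 1 to 2 kb and a mean of 25 to 100 RPKM, the median difference of PQ-fed library 1 from the other PQ-fed libraries was -0.10 on the log2 scale, and that of sucrose-fed library 2 from the other sucrose-fed libraries was 0.16. For the 21 canonical members in this span class the medians were -0.21 for PQ-fed library 1 and 0.19 for sucrose-fed library 2. The log2 fold change of PQ-fed over sucrose-fed went the other way, with a median of 0.11 for these 21 members and of -0.06 for the 533 genes, of which 31.5% were positive. Among the 1125 genes of at least 5 kb in the same range of RPKM the median differences were 0.04 for PQ-fed library 1 and -0.10 for sucrose-fed library 2, and the median log2 fold change was 0.01. Across the 27 members, span and the difference of sucrose-fed library 2 had a Spearman rho of -0.60, and span and the log2 fold change a rho of -0.11 (27 genes from the same 6 libraries, given as a description). When the values were centred within span classes, an alternative chosen after seeing the data, the median log2 fold change of the 27 was 0.17, 27 of 27 were positive, 14 had an unadjusted p under 0.05, beside 3.03% of all tested genes that were higher at this p in the same fit, and 0 were called (smallest adjusted p = 0.515 from limma). The part of span in the levels of single libraries was not tested further.

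**Figure D4:**
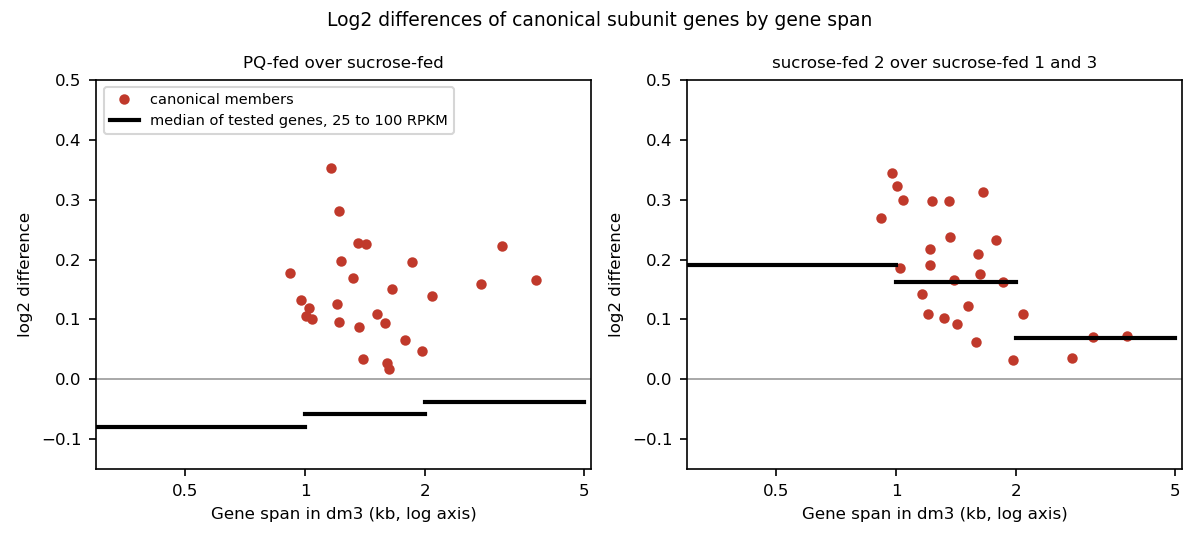
Log2 difference (vertical axis) against gene span in kb (log axis) for the 27 tested canonical members (red points), with the median of all tested genes of 25 to 100 RPKM in each span class as black bars. Left, PQ-fed over sucrose-fed, where the members lie above the bars (-0.08, -0.06 and -0.04); right, sucrose-fed library 2 over sucrose-fed libraries 1 and 3, where the members lie above the bar of the shortest genes (0.19) and on both sides of the other bars (0.16 and 0.07).

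The testis-type paralogs were at or near the floor in heads, with 1 exception. Rpt4R, a paralog of the ATPase Rpt4 (dm3 chromosome 3L, 11935123 to 11936589), was at 12.3, 8.65 and 8.52 RPKM in PQ-fed libraries, against 10.4, 11.2 and 10.5 RPKM in sucrose-fed libraries. PQ-fed library 1 was the highest of the 6 and the other PQ-fed libraries were the lowest, and the log2 fold change was -0.14 (standard error 0.15). Rpt4 itself was at 44.8, 45.8 and 46.9 RPKM in PQ-fed and 40.3, 48.8 and 42.7 RPKM in sucrose-fed libraries.

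Rpt3R, a paralog of Rpt3, was listed at 1, 1.13 and 1.13 RPKM in PQ-fed libraries and at 1 RPKM in all sucrose-fed libraries. Prosalpha3T, a paralog of Prosalpha3, was at 1, 1 and 1.18 RPKM in PQ-fed and 1.16, 1 and 1 RPKM in sucrose-fed libraries. At these levels no difference was detectable. The other 10, Prosalpha6T, Pros28.1A (Prosalpha4T1), Pros28.1B (Prosalpha4T2), Prosbeta2R1, Prosbeta2R2, Prosbeta4R1, Prosbeta4R2, Prosbeta5R (Prosbeta5R1), Rpt6R and Rpn12R, were listed at 1 RPKM in every library. Outside the symbol rule, CG31742 (Prosbeta5R2) was also at 1 RPKM throughout. CG6789 (Rpn13R) was at 2.97, 1.24 and 2.34 RPKM in PQ-fed and 1.66, 1.20 and 1.39 RPKM in sucrose-fed libraries, with overlapping groups, and its span lies within rg, a gene on the same strand at 49.4 to 80.4 RPKM.

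Other genes of the ubiquitin and proteasome pathway had values of both signs. Of 36 genes in 4 lists, 16 had a positive and 20 a negative log2 fold change, with a median of -0.02. By limma, 0 were called (smallest adjusted p = 0.951). At an unadjusted p under 0.05, 1 was higher, which is 2.78% beside 2.21% of all tested genes, and 0 were lower, beside 1.67%. Whether these lists differ from the subunits was not tested. The 11 regulators and assembly factors had a median of 0.03, with 7 positive. CG5384 (Usp14, a deubiquitinase that docks on the base) was at 28.6, 35.1 and 34.0 RPKM in PQ-fed libraries, against 28.7, 29.4 and 27.2 RPKM in sucrose-fed libraries, with overlap through PQ-fed library 1 (log2 fold change 0.19). Uch-L3 (Uch-L5, another deubiquitinase of the 19S particle) was at 17.2, 18.0 and 18.0 RPKM in PQ-fed libraries, against 16.0, 16.9 and 15.5 RPKM in sucrose-fed libraries, with no overlap and a log2 fold change of 0.13. The transcription factor cnc, the fly counterpart of the mammalian Nrf factors that drive proteasome and antioxidant genes, was at 51.8, 51.5 and 52.0 RPKM in PQ-fed libraries, against 51.7, 46.6 and 45.3 RPKM in sucrose-fed libraries. Its groups overlapped through sucrose-fed library 1 (log2 fold change 0.11, standard error 0.07).

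The 6 genes of the p97 segregase and the shuttle factors, which extract and deliver ubiquitinated proteins, had a median of 0.02, with 5 positive. TER94, the p97 ATPase, was at 81.3, 86.8 and 82.5 RPKM in PQ-fed libraries, against 75.9, 74.3 and 73.9 RPKM in sucrose-fed libraries. Its groups did not overlap, and its log2 fold change was 0.16 (standard error 0.05, limma adjusted p = 0.951). The shuttle factor Ubqn was at 52.1, 51.5 and 47.4 RPKM in PQ-fed and 52.3, 39.96 and 47.9 RPKM in sucrose-fed libraries (log2 fold change 0.11), and the p97 cofactor Ufd1-like at 25.2, 25.4 and 27.3 RPKM in PQ-fed and 23.6, 30.6 and 29.0 RPKM in sucrose-fed libraries (-0.09). Both overlapped between the groups.

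The 11 genes that supply ubiquitin or encode its activating and conjugating enzymes had a median of -0.02, with 3 positive. Ubi-p63E, a polyubiquitin gene, was at 104.9, 101.0 and 100.8 RPKM in PQ-fed libraries, against 100.9, 94.7 and 93.0 RPKM in sucrose-fed libraries (log2 fold change 0.09). The conjugating enzymes UbcD10 (Ubc10) and ben had log2 fold changes of -0.09 and -0.06. All 3 overlapped between the groups.

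The COP9 signalosome, a complex that resembles the lid in architecture and removes the ubiquitin-like protein Nedd8 from cullins, had 7 of 8 genes with negative values and a median of -0.10. CSN5, its catalytic subunit and the counterpart of Rpn11, was at 16.2, 14.5 and 14.0 RPKM in PQ-fed libraries, against 15.8, 18.9 and 15.9 RPKM in sucrose-fed libraries. Its log2 fold change was -0.17 (standard error 0.10), and the groups overlapped through PQ-fed library 1. CSN6 was at 17.4, 17.7 and 18.7 RPKM in PQ-fed and 17.8, 22.4 and 19.8 RPKM in sucrose-fed libraries (-0.15), again with overlap. In alien, another subunit, every PQ-fed library (24.2, 24.6 and 25.9 RPKM) was below every sucrose-fed library (26.2, 27.5 and 26.0 RPKM), and its log2 fold change was -0.09.

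**Figure D5:**
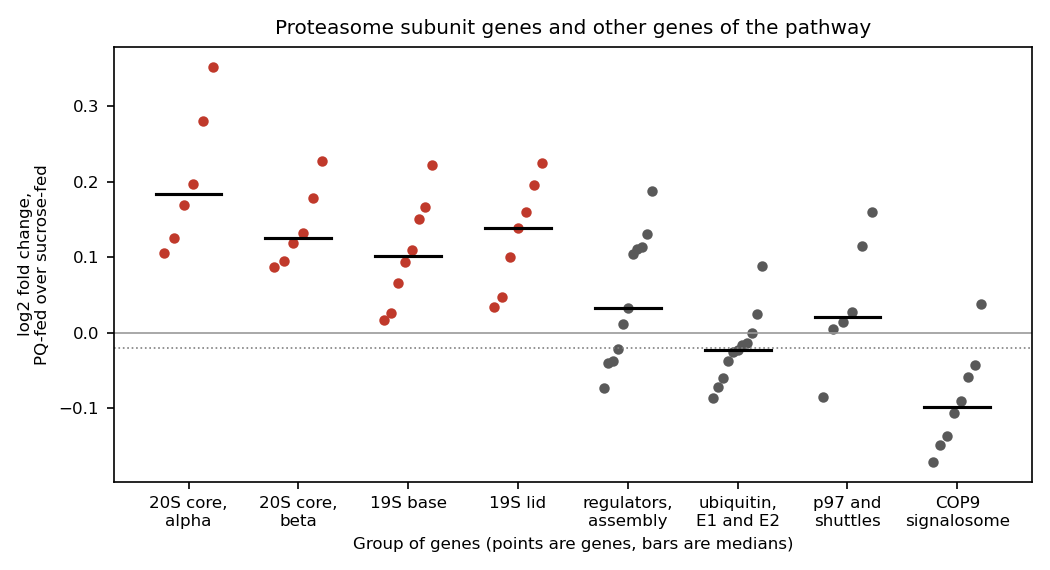
Log2 fold change of PQ-fed over sucrose-fed for each tested gene (points) of the subunit groups (red) and of 4 other lists of the pathway (grey), with the median of each as a bar, a solid line at 0 and a dotted line at the median of all tested genes. The medians of the subunit groups lie between 0.10 and 0.18 and those of the other lists between -0.10 and 0.03; 0 of the genes shown were called.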

How the data were processed

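Members and lists were chosen with earlier results of these data known. Reads (50 bp, paired) were mapped to dm3 with TopHat2 2.0 according to the submitters' processing notes. According to the study's methods, abundances were normalized by trimmed means of M-values. They do not say whether the deposited RPKM values carry this normalization, and the study's results mention raw RPKM values apart from normalized ones. Strand use in counting is not given in the sources used here. The authors deposited one RPKM value per gene and library, never below 1, which was read as a floor. Without counts, depth and counting error are unknown, and errors are those between libraries. A second table deposited by the authors holds their fold changes and p-values for selected genes and was not used. The study's methods name more replicates than the 3 per group analysed here.

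Genes at the floor in all 6 libraries (4751 of 14604) were left out. The other 9853 were tested as log2(RPKM + 0.5) with limma 3.58.1 (eBayes with a mean-variance trend, R 4.3.3) and Benjamini-Hochberg adjustment at 0.05. The study's methods name z scores for its p-values; limma, which uses the spread between libraries, was used instead. The procedure was tested on simulated data. Alternatives were no filter, a filter at a mean of 5 RPKM, pseudocounts of 0.1 and 1, trimmed means of M-values, quantile normalization, median centring, no trend, a replicate block, leaving out each library and, chosen after seeing the data, centring within gene span classes. Values per library are given for the 3 members of smallest p in each direction, those without overlap, the catalytic beta subunits, the highest and lowest members, paralogs above the floor, and up to 3 genes per list with cnc. Rpn3, Pros29, Rpt4, Prosbeta4 and Sem1 were added after their values were seen. Coordinates are those of the deposited table, and current symbols come from the RefSeq release 6 annotation, which matched 41 of 41 members. Tables and figures used Python 3.11.15, pandas 2.3.3 and matplotlib 3.10.9.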

Additional observations from a re-analysis of the deposited data

How the results depend on the processing

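Members called stayed at 0 under all 16 alternatives, as did genes of the other pathway lists. The median log2 fold change of the 27 canonical members was 0.13, with 0.131 to 0.174 under the alternatives that kept all libraries. Without a filter the median was 0.129, but over 28 genes, as Prosalpha1 at the floor was then included. When 1 library was left out, the median of the 27 was 0.0906 (without sucrose-fed replicate 3) to 0.191 (without PQ-fed replicate 1). All 27 were positive when all libraries were kept; of those left out singly, PQ-fed replicate 3 or sucrose-fed replicate 1 gave 24 positive, sucrose-fed replicate 3 gave 25 and PQ-fed replicate 2 gave 26, the negative ones being Rpt3, Rpn7 or Pros45 (lowest -0.03). Counts at an unadjusted p under 0.05 rested on single libraries: 5 with all libraries, 0 without PQ-fed replicate 2, 1 without PQ-fed replicate 3 or sucrose-fed replicate 3, 8 without PQ-fed replicate 1 and 11 without sucrose-fed replicate 2. The count was 4 without sucrose-fed replicate 1. Prosalpha3T, at the floor in 4 libraries, had a log2 fold change of 0.0065, which turned to -0.048 without PQ-fed replicate 3 and -0.017 without sucrose-fed replicate 2 or 3, and was 0.054 without sucrose-fed replicate 1.

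Over all genes, 8 were called; this was 5 with a pseudocount of 0.1, 1 without a filter (a lower one), 0 with quantile normalization, 0 without a trend, and 0 to 5 with 1 library left out. The cause was not tested. With a replicate block 4 were called, and 6 of the 27 canonical members were higher at an unadjusted p under 0.05, beside 2.79% of all tested genes (smallest adjusted p = 0.785, limma). Same-numbered libraries deviated together for number 1 (Pearson r = 0.413 over 9853 genes, not independent points) but hardly for 2 and 3 (0.0557 and 0.0476), so the numbers were not taken as pairs. Across numbers, r was 0.34 for PQ-fed 3 with sucrose-fed 2 and 0.21 for PQ-fed 2 with sucrose-fed 3. The other combinations were negative (-0.365 to -0.173). Whether libraries were handled together across numbers was not tested.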
